A study of Rattus norvegicus with 10 samples.

Results

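The A-kinase anchoring proteins are a family of scaffolds, and the 10 members described here are the genes Akap1, Akap5, Akap6, Akap7, Akap8, Akap9, Akap10, Akap11, Akap12 and Akap13. They were taken by symbol from a table of 17168 genes measured in rat hippocampus, and all 10 were present and passed the filter on low counts that left 12355 genes for testing. Left hippocampi came from 10 male TgF-344AD rats killed at 11 months of age, with 1 library per rat. All 10 rats carry the transgenes of this Alzheimer's disease model, mutant human amyloid precursor protein and presenilin genes driven by the mouse prion promoter, and animals without the transgenes were not analysed here. The 5 untreated rats ate rodent chow, and the 5 ibudilast rats ate chow with ibudilast, a phosphodiesterase inhibitor, from 5 months of age for 6 months.

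Anchoring proteins hold protein kinase A, the main kinase activated by cyclic AMP, at fixed places in the cell through its regulatory subunits. Many also bind phosphatases, phosphodiesterases, protein kinase C and ion channels, so that a local rise in cyclic AMP acts on nearby substrates. Phosphodiesterases, the targets of ibudilast, break cyclic nucleotides down. In hippocampal neurons the best known member is the product of Akap5, called AKAP150 in rodents, which sits under the postsynaptic membrane and takes part in synaptic plasticity.

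With ibudilast 6 of the 10 members fell, 1 rose and 3 did not pass (edgeR quasi-likelihood test, Benjamini-Hochberg adjusted over all genes tested). Akap5, Akap6 and Akap11 were at 0.46, 0.51 and 0.48 of the untreated level, and Akap1, Akap10 and Akap13 fell by less. Akap8, whose product lies in the nucleus, was 2.07-fold higher. Of all genes tested, 47.1% passed, 24.3% higher and 22.8% lower, and the 7 calls among 10 members are to be read against these shares. The median log2 fold change was -0.37 over the members and 0.02 over all genes tested, and the median absolute change was 0.43 and 0.36.

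The ibudilast tissue, and none of the untreated tissue, was stored in RNAlater-ICE, so drug and storage cannot be told apart in any comparison here. Library totals ran from 14806807 to 18533520 counts. Slc17a7, a glutamate transporter gene of hippocampal excitatory neurons, was at 236 CPM (read counts scaled to a common library size, with TMM factors) in ibudilast rat 4 and at 1076 to 1997 CPM elsewhere, and that rat also had the lowest Akap5, Akap6 and Akap11. Prox1, a dentate granule cell gene, was at 4.50 CPM in untreated rat 3 and at 10.2 to 51.9 CPM elsewhere. Slc17a6, a vesicular glutamate transporter gene abundant in thalamus, was at 132 CPM in ibudilast rat 4 and at 8.18 to 17.5 CPM elsewhere. Ttr, the transthyretin gene of choroid plexus, was at 7121 CPM in untreated rat 2 and 6666 CPM in ibudilast rat 1 and at most 317 CPM elsewhere. Leaving these 4 libraries out keeps untreated rats 1, 4 and 5 and ibudilast rats 2, 3 and 5. In that smaller set 6 members were again lower and 1 higher, beside 55.6% of all genes called.

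The promoters of the members with the smallest p in each direction, Akap11 and Akap8, and of the synaptic member Akap5 are shown because cyclic AMP signalling reaches genes through the response element bound by CREB. Each sequence is the 250 bases before the annotated start in RefSeq (build GRCr8), 5′ to 3′ on the gene's strand. Capitals mark TGACG, the core of the cyclic AMP response element, and the GC box GGGCGG, each on either strand (CGTCA and CCGCCC).
Akap11, chr15:60365336-60365585, minus strand: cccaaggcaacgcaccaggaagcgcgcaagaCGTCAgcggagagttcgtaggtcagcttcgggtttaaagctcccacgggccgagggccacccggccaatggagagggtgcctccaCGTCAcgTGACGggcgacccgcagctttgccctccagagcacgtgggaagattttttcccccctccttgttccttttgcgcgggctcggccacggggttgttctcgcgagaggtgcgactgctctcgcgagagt
Akap5, chr6:100786919-100787168, plus strand: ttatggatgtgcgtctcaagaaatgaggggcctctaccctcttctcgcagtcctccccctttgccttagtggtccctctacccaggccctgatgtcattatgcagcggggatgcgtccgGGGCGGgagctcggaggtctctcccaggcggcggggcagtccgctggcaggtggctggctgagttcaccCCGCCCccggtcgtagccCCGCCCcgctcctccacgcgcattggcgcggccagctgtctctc
Akap8, chr7:11982901-11983150, minus strand: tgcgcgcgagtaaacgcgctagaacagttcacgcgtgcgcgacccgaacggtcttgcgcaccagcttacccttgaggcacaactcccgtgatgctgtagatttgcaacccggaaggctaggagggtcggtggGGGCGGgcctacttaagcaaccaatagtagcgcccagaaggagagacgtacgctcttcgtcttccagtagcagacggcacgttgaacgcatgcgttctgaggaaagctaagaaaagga
The Akap11 window holds 3 TGACG cores and 0 GC boxes, the Akap5 window 0 and 3, and the Akap8 window 0 and 1. All 10 members were matched to this table by symbol, and Akap11 was the only one of the 10 windows with a TGACG core, against 18.2% of the 33469 windows of this length. The GC box was in 7 of the 10 windows, against 30.5% of all windows. These shares are over every annotated window and not over the genes tested here, so the 2 sets differ in kind. The median over all windows was 5 CG pairs, and the members held 3 to 29. The full palindrome TGACGTCA was in 0 of the 10 and in 1.59% of all. The windows of Akap6 and Akap1 were low in G and C, at 40.8% and 46.8%, and those of the other members held 55.6% to 68.8%, beside a median of 51.2% over all windows. A match is a string of letters and not a shown binding site, and the table gives 1 start per gene.

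Among scaffolds of the plasma membrane and synapse, Akap5 fell. It binds protein kinase A, calcineurin and protein kinase C and is tied to glutamate receptors through PSD-95. Akap5 was at 45.0, 35.8, 44.2, 44.9 and 44.4 CPM in untreated rats 1 to 5 and at 17.9, 23.0, 23.2, 9.10 and 25.4 CPM in ibudilast rats 1 to 5. The groups did not overlap, untreated rat 2 was the lowest of its group, and ibudilast rat 4 was far below the other treated rats. The log2 fold change was -1.12 ± 0.23 (SE; adjusted p = 0.00254), a fall from 42.9 ± 3.96 to 19.7 ± 6.53 CPM (SD, n = 5 each). Without ibudilast rat 4 and the other 3 libraries named above it was -0.91 ± 0.07 (adjusted p = 1.28e-05). Those libraries include the lowest Akap5 rat of each group, so the spread within groups was trimmed as well.

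Akap5 was read beside neuronal markers, since it is a neuronal gene. Of 14 neuron markers 7 fell, 0 rose and 7 did not pass, and their summed level was 6403 to 9248 CPM in untreated and 2954 to 5668 CPM in ibudilast rats, lowest in ibudilast rat 4. Other cell type lists differed between the groups as well. The oligodendrocyte list had 5 of 10 genes higher and 0 lower, with sums of 7752 to 15183 CPM in untreated and 15860 to 18860 CPM in ibudilast rats. Of 10 microglia markers 6 fell, 0 rose and 4 did not pass, with sums of 546 to 1023 CPM and 436 to 519 CPM, and the astrocyte list had 4 of 9 genes lower and 0 higher, with sums of 6286 to 9561 CPM and 6137 to 8158 CPM that overlapped. These marker counts stand beside 22.8% lower and 24.3% higher among all genes tested, and were not tested against them. In bulk tissue fewer cells of a type and less RNA per cell cannot be told apart. The part of these lists in the fall of Akap5, Akap6 and Akap11 and in the rise of Akap8 was not tested.

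**Figure D1:**
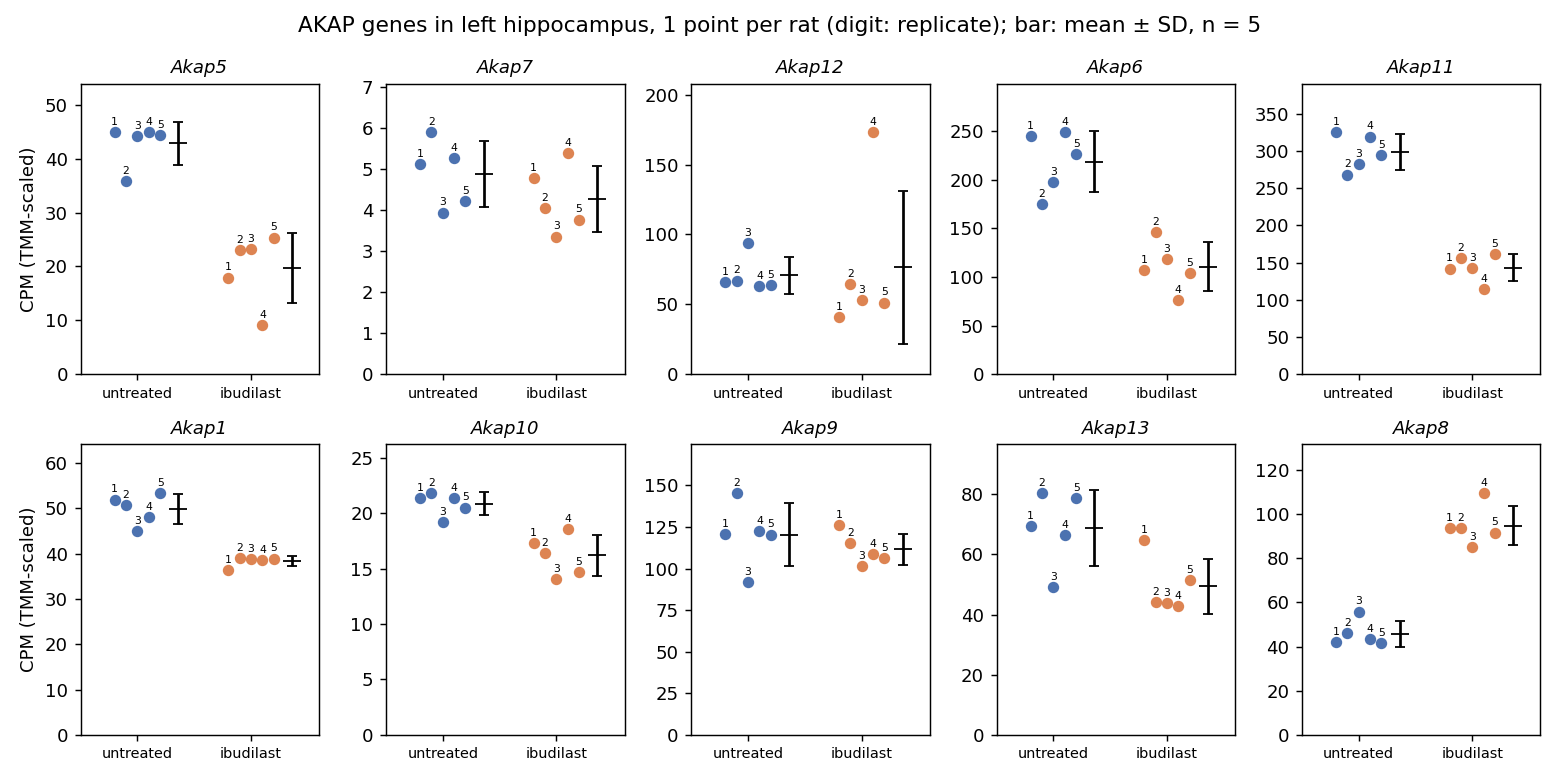
CPM of each AKAP gene (vertical axes, each from 0) in 5 untreated and 5 ibudilast rats; points are single rats with their replicate number, and black bars are the mean ± SD. Akap5, Akap6, Akap11, Akap1 and Akap10 lie lower and Akap8 lies higher in all 5 ibudilast rats, and Akap12 has 1 high point at 173 CPM.

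Akap7 encodes a small anchoring protein, AKAP15 or AKAP18, that works with calcium channels. It had the fewest reads of the family, from 48 to 112 per library, and a count of 48 carries a counting error of 14.4%. Akap7 was at 5.11, 5.90, 3.93, 5.25 and 4.21 CPM in untreated rats 1 to 5 and at 4.78, 4.05, 3.35, 5.37 and 3.76 CPM in ibudilast rats 1 to 5. The groups overlapped through most of their range. Its log2 fold change was -0.19 ± 0.18 (SE, adjusted p = 0.391), with a 95% interval from -0.58 to 0.19. Without ibudilast rat 4 it was -0.31 (adjusted p = 0.166), without ibudilast rat 3 -0.12 (0.612) and without the 4 libraries named above -0.38 (0.0931).

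Akap12, also called gravin or SSeCKS, is a membrane scaffold of protein kinases A and C that binds the beta-2 adrenergic receptor and is known from vascular, meningeal and glial cells. Akap12 was at 65.6, 67.0, 93.9, 63.2 and 63.9 CPM in untreated rats 1 to 5 and at 40.6, 64.7, 52.7, 173 and 51.2 CPM in ibudilast rats 1 to 5. Untreated rat 3 and ibudilast rat 4 each stood above the rest of their group, and ibudilast rat 4 was the highest of all. With all rats the log2 fold change was 0.11 ± 0.36 (SE, adjusted p = 0.824), with a 95% interval from -0.69 to 0.92. Without ibudilast rat 4 the sign turned and the gene passed, at -0.46 ± 0.16 (adjusted p = 0.0340), while without all 4 libraries named above it was -0.19 ± 0.09 (adjusted p = 0.103).

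Ibudilast rat 4 also had the highest sums of 2 marker lists. Markers of meninges and fibroblasts summed to 2173 CPM in that rat and to 127 to 757 CPM in the other treated rats, and mural cell markers to 453 CPM against 118 to 163 CPM. The same lists were at 1644 CPM and 277 CPM in untreated rat 2, where Akap12 was at 67.0 CPM, and at 365 and 275 CPM in untreated rat 3, where it was at 93.9 CPM. In ibudilast rat 1 most of the 757 CPM came from Igf2 (423 CPM) and Igfbp2 (209 CPM), with Col1a1 at 6.85 CPM. Untreated rat 2 had them at 767, 278.5 and 115 CPM, and ibudilast rat 4 at 952, 397 and 180 CPM. Ibudilast rat 1 and untreated rat 2 were the rats high in Ttr, so this sum may not measure meninges alone. Endothelial markers were highest in untreated rat 3, at 626 CPM against 337 to 440 CPM in the other untreated rats. Among treated rats they were highest in ibudilast rat 4, at 321 CPM against 165 to 243 CPM. Of 10 meningeal and fibroblast markers tested 1 fell and 9 did not pass. The 1 that fell was Pdgfra (adjusted p = 0.00476), which was also listed as a marker of oligodendrocyte precursors. Of 9 mural markers 3 fell and 6 did not pass, and of 9 endothelial markers 5 fell and 4 did not pass. The counts stand beside 22.8% lower and 24.3% higher among all genes tested. None of these marker lists had a gene at 0 in every library. Their part in the Akap12 values was not tested.

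**Figure D2:**
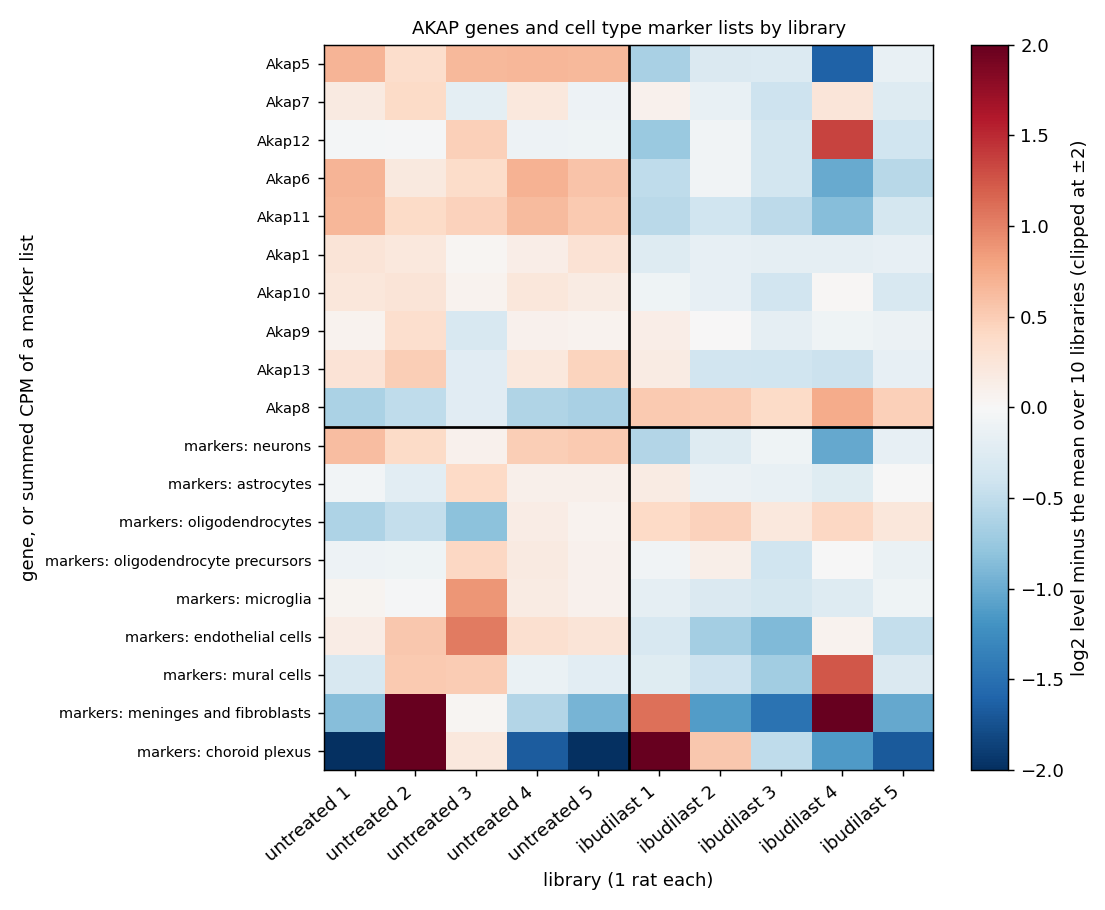
Log2 level of each AKAP gene (log2 CPM) and of each marker list (log2 of its summed CPM) in the 10 libraries, as the difference from the row mean, clipped at ±2; columns are rats and rows are genes or lists. Akap12 and the mural and meningeal lists are high in ibudilast rat 4, where Akap5, Akap6 and the neuron list are lowest.

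Of the members placed on internal membranes and vesicles, Akap6 and Akap11 fell. Akap6 encodes mAKAP, a large scaffold of the nuclear envelope and sarcoplasmic reticulum that holds protein kinase A, ryanodine receptors, calcineurin and a PDE4D isoform. Akap6 was at 245, 175, 198, 249 and 227 CPM in untreated rats 1 to 5 and at 107, 146, 119, 76.4 and 104 CPM in ibudilast rats 1 to 5. The lowest untreated rat, rat 2, was above the highest treated rat, also rat 2, and ibudilast rat 4 was again lowest. Akap6 fell by 0.99 ± 0.16 on the log2 scale (SE, adjusted p = 7.49e-04).

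Akap11 encodes AKAP220, a scaffold of vesicles that binds glycogen synthase kinase 3 and protein phosphatase 1 and serves as an autophagy receptor for a regulatory subunit of protein kinase A. Akap11 was at 326, 268, 283, 319 and 295 CPM in untreated rats 1 to 5 and at 142, 156, 143, 114 and 161 CPM in ibudilast rats 1 to 5. The groups lay far apart, with a gap from 161 to 268 CPM that was wider than the range within either group. Akap11 fell from 298 ± 24.1 to 143 ± 18.0 CPM (SD, n = 5 each), a log2 fold change of -1.06 ± 0.10 (SE, adjusted p = 3.55e-05), and had the smallest p of the falling members. Leaving out 1 rat at a time kept it between -1.12 and -1.01.

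The 95% intervals of Akap5 (-1.63 to -0.61), Akap6 (-1.35 to -0.62) and Akap11 (-1.28 to -0.84) overlapped, and their order was not tested. The absolute change of these members exceeded that of 91.0% to 93.5% of all genes tested.

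The mitochondrial anchors Akap1 and Akap10 fell by less. Akap1 encodes AKAP121, which holds protein kinase A at the outer mitochondrial membrane, and Akap10 encodes D-AKAP2, which takes both types of regulatory subunit. Akap1 was at 51.9, 50.7, 45.0, 48.1 and 53.4 CPM in untreated rats 1 to 5 and at 36.4, 39.0, 38.7, 38.6 and 38.9 CPM in ibudilast rats 1 to 5. The treated rats were close together and all lay below the lowest untreated rat, rat 3. The log2 fold change was -0.38 ± 0.06 (SE, adjusted p = 6.94e-04), or 23.1% lower, a change near the median absolute change of all genes.

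Akap10 was at 21.4, 21.8, 19.2, 21.4 and 20.5 CPM in untreated rats 1 to 5 and at 17.3, 16.4, 14.1, 18.5 and 14.7 CPM in ibudilast rats 1 to 5. The groups did not overlap, but untreated rat 3, at 19.2 CPM, and ibudilast rat 4, at 18.5 CPM, were close. Akap10 fell by 0.36 ± 0.09 on the log2 scale (SE, adjusted p = 0.00676). With library size alone in place of TMM factors it was -0.29 and lost its call (adjusted p = 0.0656).

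Akap9 and Akap13 encode the largest proteins of the family. Akap9, known as Yotiao or AKAP450, sits at the centrosome and Golgi and binds NMDA receptors and potassium channels. It was at 121, 146, 92.0, 122 and 120 CPM in untreated rats 1 to 5 and at 126, 115, 102, 109 and 106 CPM in ibudilast rats 1 to 5. The treated rats lay inside the range of the untreated rats, and untreated rat 3 was the lowest of all. The log2 fold change was -0.11 ± 0.11 (SE, adjusted p = 0.451), with a 95% interval from -0.35 to 0.14. Without untreated rat 3 it was -0.22 (adjusted p = 0.0611) and without the 4 libraries named above -0.17 (0.0524), while without untreated rat 2 it was -0.051 (0.712).

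Akap13 encodes AKAP-Lbc, which activates the small GTPase RhoA and also anchors protein kinase A. Akap13 was at 69.4, 80.5, 49.1, 66.4 and 78.7 CPM in untreated rats 1 to 5 and at 64.7, 44.0, 43.8, 42.7 and 51.5 CPM in ibudilast rats 1 to 5. The groups overlapped, since untreated rat 3 was low and ibudilast rat 1 was high. The log2 fold change was -0.48 ± 0.15 (SE, adjusted p = 0.0251). The call was lost without untreated rat 5 (-0.43, adjusted p = 0.0603), without ibudilast rat 2 (-0.44, 0.0596) or 3 (-0.44, 0.0584) and with library size alone (-0.41, 0.0617). It was the 1 member whose deposited counts were not whole, in all 10 libraries, so some of its reads were shared out by the authors' estimate. Without the 4 libraries named above Akap13 was at -0.62 ± 0.09 (adjusted p = 3.20e-04). Those libraries hold its highest and lowest rat of each group, so the spread within groups was trimmed as well.

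Akap8, the nuclear member, rose. It encodes AKAP95, a zinc finger protein of the nuclear matrix that takes part in chromosome condensation and RNA splicing. Akap8 was at 42.1, 46.0, 55.9, 43.3 and 41.6 CPM in untreated rats 1 to 5 and at 93.9, 93.8, 85.2, 110 and 91.7 CPM in ibudilast rats 1 to 5. Every treated rat was above every untreated rat, with untreated rat 3 and ibudilast rat 4 the highest of their groups. Akap8 rose from 45.8 ± 5.89 to 94.8 ± 9.01 CPM (SD, n = 5 each), a log2 fold change of 1.05 ± 0.10 (SE, adjusted p = 3.23e-05). It had the smallest p of the 10 members, and its log2 fold change stayed between 0.97 and 1.13 under all 19 alternatives. The groups did not overlap for 6 of the 10 members (5 lower, 1 higher), against 33.4% of all genes tested (15.4% lower, 18% higher).

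**Figure D3:**
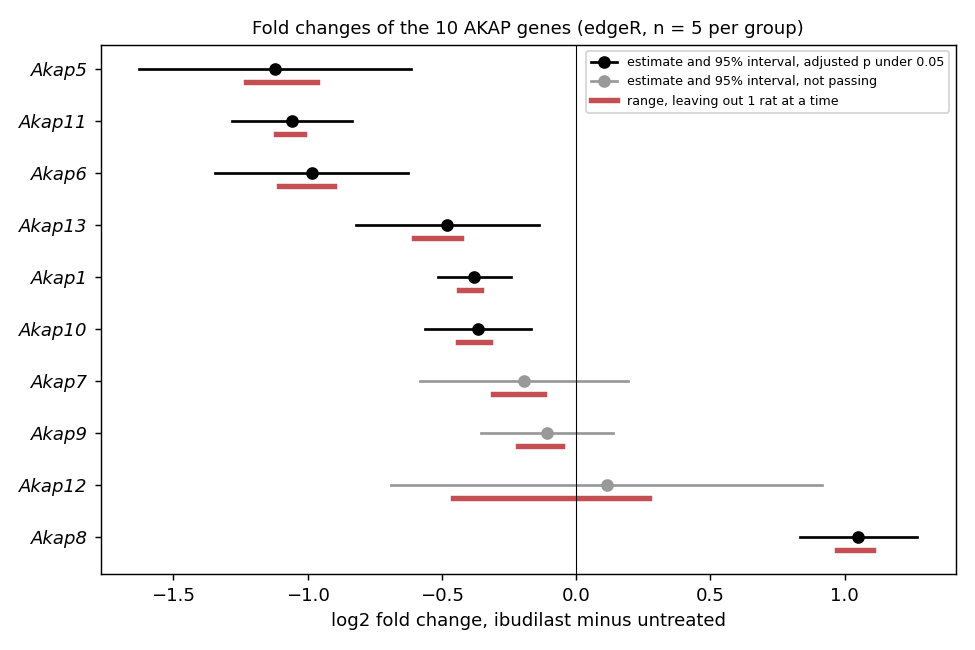
Log2 fold change of each AKAP gene (horizontal axis, ibudilast minus untreated) with its 95% interval, black where the adjusted p is under 0.05 and grey otherwise; red bars give the range when 1 rat is left out. The intervals of Akap7, Akap9 and Akap12 cross 0, and the red bar of Akap12 runs from -0.46 to 0.27.

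**Figure D4:**
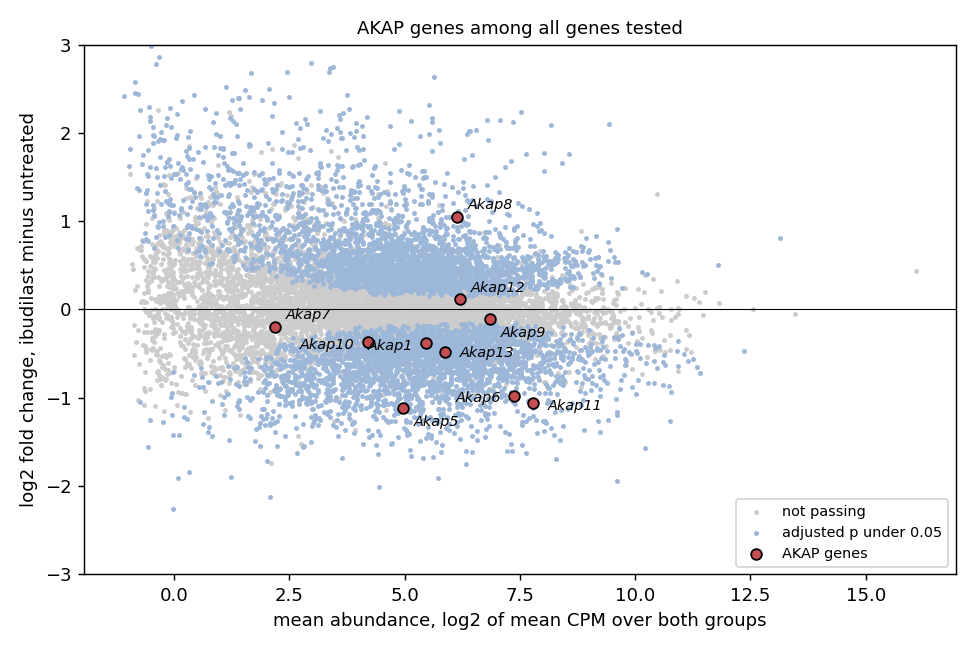
Log2 fold change (vertical axis) against log2 mean CPM, which is not corrected for transcript length, for the 12355 genes tested; 1 gene lies outside the plotted range of -3 to 3. Akap8 lies among the higher genes, Akap5, Akap6 and Akap11 among the lower ones at about -1, and Akap9 and Akap12 near 0.

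Summed over the 10 members, anchoring protein transcripts were at 884 to 992 CPM in untreated and 624 to 702 CPM in ibudilast rats. The sum weighs long and abundant transcripts most. Akap11 and Akap6 accounted for most of the change, by -155 and -108 CPM, and Akap8 for 49.1 CPM in the other direction.

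A list of 29 genes was meant to hold other genes whose proteins anchor protein kinase A, or that carry an AKAP name outside the 10. It also held Ppp1r1b and Smtn, whose products are not established anchors, and neither passed (adjusted p = 0.588 and 0.160). Of the list 23 genes were tested. Of these 2 rose, 11 fell and 10 did not pass, with a median log2 fold change of -0.42. Akap8l and Akap17a were the 2 that rose. Akap8l, a nuclear relative of Akap8, is its neighbour in RefSeq on the same strand. Akap8l was at 63.8, 68.9, 112, 63.4 and 66.3 CPM in untreated rats 1 to 5 and at 243, 259, 237, 231 and 236 CPM in ibudilast rats 1 to 5. As with Akap8, no treated rat overlapped the untreated rats and untreated rat 3 was the highest of its group. The log2 fold change was 1.69 ± 0.16 (SE, adjusted p = 2.92e-05). Akap17a, which encodes a splicing factor that binds protein kinase A, rose by 0.50 ± 0.06 (SE, adjusted p = 1.12e-04), from 83.2 ± 4.76 to 118 ± 5.03 CPM. Thus the genes with an AKAP name that rose were Akap8, Akap8l and Akap17a, which were singled out after their values were seen.

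Map2, whose product anchors protein kinase A on dendritic microtubules, was at 884 to 1733 CPM in untreated and 270 to 380 CPM in ibudilast rats, a log2 fold change of -1.94 ± 0.18 (SE, adjusted p = 3.24e-05). Sphkap, an anchor specific for type I regulatory subunits, fell by 0.96 ± 0.13 on the log2 scale (SE, adjusted p = 2.40e-04) and was at 61.9 CPM in untreated rat 3, the lowest untreated value, and at most 50.2 CPM with ibudilast.

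Of 9 genes of protein kinase A subunits and inhibitors 6 fell, 0 rose and 3 did not pass, with a median of -0.58. The inhibitor genes Pkia and Pkib were among the 6, and the catalytic subunit gene Prkaca (adjusted p = 0.0631), the regulatory subunit gene Prkar2b (0.122) and the inhibitor gene Pkig (0.852) did not pass. The regulatory subunit gene Prkar1a was at 267 to 319 CPM in untreated and 150 to 174 CPM in ibudilast rats (log2 fold change -0.85 ± 0.07, SE, adjusted p = 2.42e-05). Prkar2a, a type II regulatory subunit gene and thus a classical partner of AKAP helices, went from 24.4 ± 2.44 to 16.3 ± 2.25 CPM (adjusted p = 0.00148). The catalytic subunit gene Prkacb and the inhibitor gene Pkia fell by 1.11 ± 0.13 and 1.25 ± 0.09 on the log2 scale (SE).

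Of 21 genes of cyclic AMP synthesis and breakdown, 3 rose, 9 fell and 9 did not pass, with a median of -0.27. Adcy1, a calmodulin-stimulated adenylyl cyclase of neurons, went from 341 ± 52.8 to 129 ± 38.1 CPM (adjusted p = 3.61e-04). The phosphodiesterase genes Pde4d, Pde4b and Pde10a fell by 0.88 ± 0.14, 0.69 ± 0.13 and 0.81 ± 0.16 on the log2 scale (SE).

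Of 24 phosphatase, kinase and small GTPase genes whose products anchoring proteins bind, 4 rose, 13 fell and 7 did not pass, with a median of -0.31. Ppp3cb, a catalytic subunit of calcineurin and so a partner of AKAP150 and mAKAP, was at 291 to 482 CPM in untreated and 104 to 198 CPM in ibudilast rats (log2 fold change -1.34 ± 0.19, SE, adjusted p = 3.33e-04). Gsk3b, the glycogen synthase kinase bound by AKAP220, fell by 0.96 ± 0.13 (SE, adjusted p = 1.83e-04), and Rhoa, the target of AKAP-Lbc, by 0.76 ± 0.06 (SE, adjusted p = 1.73e-05).

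Of 20 tested genes of channels, receptors and scaffolds that anchoring proteins bind, 0 rose, 9 fell and 11 did not pass, with a median of -0.52. Itpr1, an inositol trisphosphate receptor gene, was at 589 to 766 CPM in untreated and 335 to 450 CPM in ibudilast rats (log2 fold change -0.83 ± 0.11, SE, adjusted p = 1.94e-04). Kcnq3, Dlg3 and Ywhaz, which encode an M-channel subunit, a synaptic scaffold and a 14-3-3 protein, fell by 1.05 ± 0.16, 1.00 ± 0.17 and 0.96 ± 0.16 on the log2 scale (SE). Since 22.8% of all genes tested were lower and the lists were chosen with earlier results of these data known, the counts describe the lists and were not tested against other genes.

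**Figure D5:**
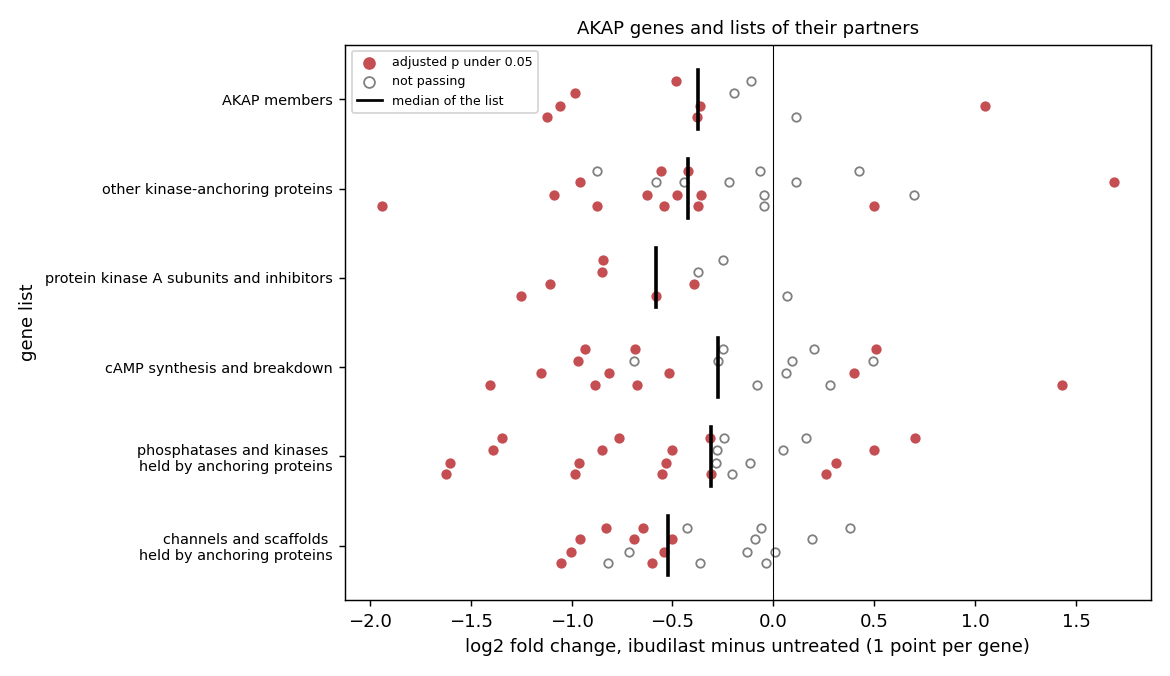
Log2 fold change (horizontal axis, ibudilast minus untreated) of each tested gene in 6 lists (rows), filled where the adjusted p is under 0.05; black bars are list medians. All 6 medians lie below 0, and the AKAP gene at the right is Akap8.

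Within groups, some members varied together from rat to rat. After subtracting each group's mean from log2 CPM, Akap7 and Akap10 had a Pearson r of 0.92 (Spearman rho 0.94) over 10 libraries, and 0.86 without the 2 libraries farthest from the median of Akap7. Akap5 and Akap11 had an r of 0.89 (rho 0.88), and 0.64 without ibudilast rats 4 and 5. Akap8 and Akap12 had an r of 0.71 (rho 0.55), which was -0.10 without untreated rat 3 and ibudilast rat 4 and so rests on those libraries. These are the pairs with the highest, the second highest and a library-dependent r among 45 and are given as a description.

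Measured the same way against all tested genes, Akap11 was most like Xkr4, Kif3a and Tmem132b, with r of 0.96, 0.95 and 0.95 over 10 libraries and at least 0.90 without ibudilast rats 4 and 5. Those genes fell by 0.63, 0.62 and 0.53 on the log2 scale. Akap8 was most like Anks6, Pecam1 and Notch3, with r of 0.99, 0.98 and 0.98 and at least 0.87 without untreated rat 3 and ibudilast rat 4. Anks6 rose by 1.65 on the log2 scale, as Akap8 did. Pecam1, an endothelial adhesion gene, and Notch3, a receptor gene of mural cells, fell by 0.81 and 0.95. Pecam1 and Notch3 thus varied with Akap8 from rat to rat within groups and went the opposite way between groups. Against the mean of each marker list, taken the same way, Akap8 had an r of -0.93 with neurons and 0.95 with endothelial cells. It also had 0.83 with mural cells and 0.72 with astrocytes. Akap5, Akap6 and Akap11 had r of 0.55, 0.68 and 0.69 with neurons and -0.70, -0.80 and -0.74 with endothelial cells. Their r was larger in size with mural cells, at -0.85, -0.86 and -0.82. It was largest with meninges and fibroblasts, at -0.88, -0.88 and -0.85. These list values are over 10 libraries and were not repeated without untreated rat 3 and ibudilast rat 4.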

How the data were processed

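RNA of 10 left hippocampi was measured in stranded mRNA libraries, per the labels. The table used holds expected counts, which the authors estimated for each gene symbol and deposited without normalization. Tools named in the submitters' processing notes, with no roles given, are RSEM 1.2.15, Bowtie2 2.1.0, bcl2fastq and edgeR, and the build is rn6. The annotation was not given in the sources used here, and the authors' normalized table was not used.

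Expected counts (12% not whole) were rounded and fitted in R 4.3.3 with edgeR 4.0.16 (robust quasi-likelihood, TMM factors, filterByExpr), and p-values were adjusted by Benjamini-Hochberg over 12355 genes, with a threshold of 0.05. Log2 CPM used a prior count of 2. The script was tested on simulated data. Each replicate is a different rat, as the design text states, and no pair of libraries within a group agreed within sampling noise (lowest chi-square per gene 11.5). The members, the lists and the 4 libraries left out together were chosen with earlier results of these data known. Named genes were all members, up to 4 of each partner list by smallest p, and the 3 genes most like the members with the smallest p in each direction and the highest CPM, and 1 gene under this rule is not reported here. The fit was repeated with RLE, upper-quartile or no factors, without a filter, with a mean of at least 1 CPM, by DESeq2 1.42.0, by limma-voom (limma 3.58.1), with a replicate block and without single rats. Promoters came from RefSeq (GRCr8) and were searched for fixed letters.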

Additional observations from a re-analysis of the deposited data

Results flagged for a closer look

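In groups of 5 rats, a rat was singled out where its gap to the nearest other rat exceeded 0.71 of the group's range. Of 20 groups tested 4 had such a rat, where chance gives about 1 in 20 for independent groups with normal values. The groups were not independent, since all members were read in the same libraries and some varied together (r up to 0.92). The count therefore does not measure an excess over chance. Akap12 had one in each group: untreated rat 3 at 93.9 CPM against 67.0 CPM for the nearest (ratio 0.877), and ibudilast rat 4 at 173 CPM against 64.7 CPM (0.818). Akap5 had untreated rat 2 at 35.8 CPM, below 44.2 CPM (0.917). Akap1 had ibudilast rat 1 at 36.4 CPM, below 38.6 CPM (0.861), in a group with a narrow range.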

How the results depend on the processing

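Of the 19 alternatives, Akap1, Akap5, Akap6, Akap8 and Akap11 kept their direction and their call in all 19, Akap10 in 18 and Akap13 in 15, while Akap7 and Akap9 kept their sign and never passed. Akap10 lost its call with library size alone, and Akap13 there and without 1 of 3 rats, with the values given above. Akap12 changed sign by limma-voom (-0.088, adjusted p = 0.851), with a replicate block (-0.11, 0.827), without ibudilast rat 4 (-0.46, 0.0340) and without the 4 libraries that stood apart (-0.19, 0.103). Leaving out 1 rat gave -0.46 to 0.27 for this gene. The cause under limma-voom and the block was not tested. Over the same 10 fits, there was 1 member higher each time and 5 to 7 lower, beside 2549 to 3068 genes higher and 2461 to 3224 lower in all. Deviations of same-numbered rats from their group means correlated at -0.33 to 0.42, and 0 of 5 untreated rats correlated best with their own number. This gave no sign that the shared replicate numbers pair the rats, but cannot exclude it, since a pairing need not show in expression. With the replicate block 1 member was higher and 6 lower, as without it, among 2497 genes higher and 2229 lower. Depth limited Akap7 most.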
